A study of Mus musculus with 6 samples.

Results

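The keratin genes of the mouse cochlea were followed at postnatal day 7 in 3 libraries that carry the label of a Neu4 knockout, numbered 2, 4 and 5, and in 3 wild type libraries, numbered 3, 4 and 5. The members were all protein-coding genes of the deposited table whose symbol is Krt followed by a number and at most 1 letter, which gave 43 of 30462 genes. The labels give the knockout libraries the genotype NEU4 KO and the control libraries WT, without naming the strain, the allele, the part of the gene removed or whether tissue was pooled. Separate animals are not stated either. Each group held male and female libraries (below), so neither group came from a single animal. Libraries of the same sex may still share an animal, and the spread on which the p-values rest may therefore be technical in part. Neu4 encodes a sialidase, and its level was 0.0518, 0.102 and 0.0853 FPKM in knockouts 2, 4 and 5, against 0.0523, 0.1004 and 0.0810 FPKM in wild types 3, 4 and 5. Neu4 RNA was therefore equally low in both groups and gives no check of the labels.

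Keratins are the intermediate filament proteins of epithelial cells. A filament needs a type I keratin and a type II keratin in equal amounts, and the pair in use marks the kind of epithelium. Simple, single-layered epithelia use Krt8 with Krt18 and often Krt7 or Krt19. The basal layer of stratified epithelia such as skin and mucosa uses Krt5 with Krt14, its upper layers use pairs such as Krt1 with Krt10 or Krt4 with Krt13, and hair keratins build the hair shaft. In the inner ear, simple keratins are known from the epithelial cells that line the cochlear duct.

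The libraries held 15170973 to 17192293 fragments, recovered from the deposited FPKM (fragments scaled by exon length and by library total) and the exon lengths. Markers of the labelled tissue were present in all 6 libraries. The tectorial membrane gene Tectb was at 99.7, 116 and 116 FPKM in knockouts 2, 4 and 5, against 95.7, 93.9 and 96.2 FPKM in wild types 3, 4 and 5, and the hair cell gene Otof was at 6.88 FPKM or more in each library. By Xist and the Y-linked gene Ddx3y, knockout 2 and wild types 3 and 4 were male and the other 3 libraries female. Ddx3y was at 0 FPKM in each of the female libraries. Xist was at 24.6 and 28.2 FPKM in knockouts 4 and 5, against 9.23 FPKM in wild type 5, the only female wild type. The cause of the lower Xist level in wild type 5 was not tested.

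Few keratin genes carried most of the keratin RNA. Of the 43 genes, 12 had at least 1 FPKM in at least 3 libraries and entered the test across all genes, and no other keratin reached 1 FPKM in any library. The 12 were 5 of the 6 simple keratins (Krt7, Krt8, Krt18, Krt19 and Krt23), all 4 basal keratins (Krt5, Krt14, Krt15 and Krt17), 2 of the 15 suprabasal and barrier keratins (Krt4 and Krt10) and the keratin-like gene Krt222. None of the 11 hair keratins and none of the 6 inner root sheath keratins passed. Krt4, Krt5, Krt14, Krt15 and Krt17 were above 1 FPKM in all 3 wild types and in knockout 5, while Krt14 alone passed 1 FPKM in knockout 2 and none did in knockout 4.

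The sum over all 43 genes was 30.03, 33.0 and 49.2 FPKM in knockouts 2, 4 and 5, against 65.7, 79.9 and 63.6 FPKM in wild types 3, 4 and 5. All 3 knockout sums lay below all 3 wild type sums. The simple keratins held 67.8%, 73.6% and 55.1% of that sum in knockouts 2, 4 and 5, against 52.6%, 50.4% and 46.8% in the wild types (3, 4 and 5). The basal keratins held 8.36%, 1.75% and 27.9% in the knockouts, against 34.1%, 37.5% and 37.8% in the wild types. Knockouts 2 and 4 thus had little basal keratin RNA, and knockout 5 an amount between theirs and that of the wild types.

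**Figure D1:**
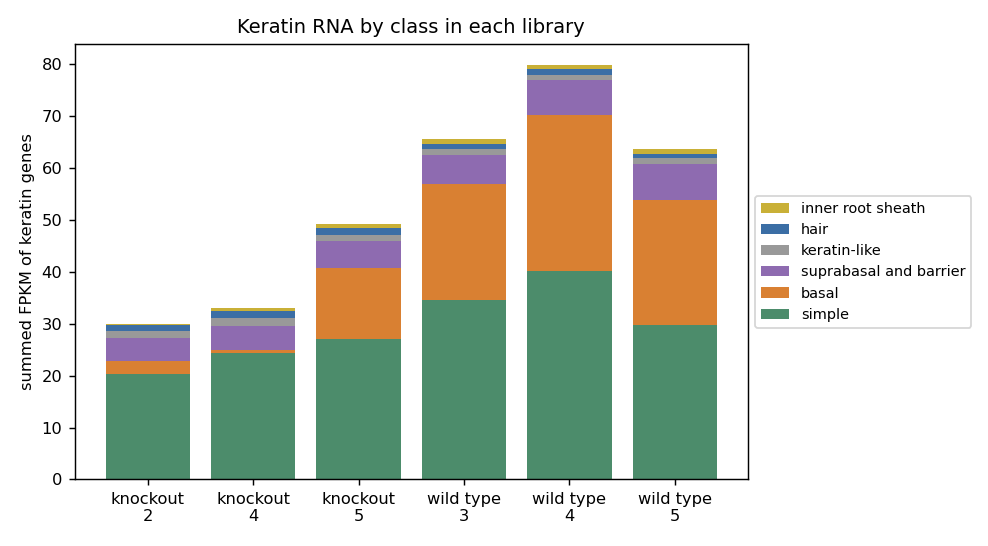
Stacked bars give the summed FPKM of the keratin genes of each class in each library, with knockouts 2, 4 and 5 left of wild types 3, 4 and 5. The basal part of the bar is 2.51, 0.579 and 13.7 FPKM in knockouts 2, 4 and 5, against 22.4 to 30.01 FPKM in the wild types.

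The basal keratins showed the widest differences. Their summed FPKM was 2.51, 0.579 and 13.7 in knockouts 2, 4 and 5, against 22.4, 30.01 and 24.1 in the wild types (3, 4 and 5) (5.60 ± 7.09 against 25.5 ± 4.01, SD, n = 3 each). Knockouts 2 and 4 had 9.84% and 2.27% of the wild type mean, and knockout 5 had 53.8%. Without knockouts 2 and 4, a choice made after seeing the data, the difference in the sum was -11.8 FPKM, against -19.9 FPKM over all libraries. Within the male libraries the sum was 2.51 FPKM in knockout 2, against 22.4 and 30.01 FPKM in wild types 3 and 4. Within the female libraries it was 0.579 and 13.7 FPKM in knockouts 4 and 5, against 24.1 FPKM in wild type 5. In whole tissue such as this, fewer cells of a type and less RNA per cell cannot be told apart.

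Krt5 is the type II keratin of basal cells (ENSMUSG00000061527, chromosome 15, 101707070 to 101712898, minus strand, GRCm38). It had 0.656, 0.134 and 2.67 FPKM in knockouts 2, 4 and 5, against 5.13, 7.15 and 5.55 FPKM in wild types 3, 4 and 5. These are 24, 5 and 89 fragments in the knockouts and 186, 270 and 195 in the wild types. Every knockout value lay below every wild type value, and knockout 5 lay between the other knockouts and the wild types. The log2 fold change was -1.86 (SE 0.39, limma on log2(FPKM + 1), adjusted p = 0.106), lower in 3 of 3 knockout libraries.

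The promoter windows of Krt5, a basal gene with widely spread levels, and Krt10, a suprabasal gene with closely spaced ones, are shown side by side. Each runs from 250 bases before to 50 bases after the start site (RefSeq, GRCm38.p6, minus strand, 5′ to 3′), Krt5 at chr15:101712856-101713155 and Krt10 at chr11:99389315-99389614. Capitals mark a half-site of the p53 family, to which the basal cell regulator p63 belongs, in Krt5 and a TATAAA box in Krt10.
Krt5: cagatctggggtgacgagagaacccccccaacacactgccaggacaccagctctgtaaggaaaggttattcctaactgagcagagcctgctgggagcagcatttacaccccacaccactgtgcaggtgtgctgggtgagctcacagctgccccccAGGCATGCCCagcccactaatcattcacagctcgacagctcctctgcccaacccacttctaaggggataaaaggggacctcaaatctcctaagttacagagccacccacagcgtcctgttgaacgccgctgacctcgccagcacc
Krt10: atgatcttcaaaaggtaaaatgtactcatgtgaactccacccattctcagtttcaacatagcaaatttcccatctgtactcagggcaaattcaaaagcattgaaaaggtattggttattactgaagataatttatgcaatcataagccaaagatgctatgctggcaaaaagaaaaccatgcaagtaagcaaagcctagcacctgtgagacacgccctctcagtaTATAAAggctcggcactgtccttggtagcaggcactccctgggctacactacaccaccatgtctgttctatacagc
The half-site (both strands searched) was in 8.36% of the 32851 windows of all genes. Of the 28 keratin genes with a window, 2 had it, Krt5 and the hair keratin Krt82. The window of the basal gene Krt14 did not, but its start site lies 1518 bases from the gene start in the deposited data. The basal genes Krt15 and Krt17 had no window. TATAAA, on either strand, was in 13.6% of all windows and in those of 13 of the 28 keratin genes. A match describes letters only.

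Krt14 is the type I partner of Krt5 (ENSMUSG00000045545, chromosome 11, 100203162 to 100207548). It had 1.02, 0.0672 and 4.12 FPKM in knockouts 2, 4 and 5, against 5.10, 6.62 and 4.91 FPKM in wild types 3, 4 and 5. Knockout 4 held 2 fragments and knockout 2 held 30, so that knockout 2 kept 18.5% of the wild type mean and knockout 4 kept 1.21%. The groups did not overlap, with a log2 fold change of -1.54 (SE 0.50, limma, adjusted p = 0.189).

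Krt15, a type I keratin of basal cells and of the stem cells of the hair follicle bulge, was the most abundant basal keratin in the wild types. Its level was 0.713, 0.301 and 4.999 FPKM in knockouts 2, 4 and 5, against 8.67, 11.8 and 10.3 FPKM in wild types 3, 4 and 5. The log2 fold change was -2.24 (SE 0.51, limma, adjusted p = 0.123). Among the 14072 tested genes it had the third lowest log2 fold change. Krt17, a type I keratin of skin appendages that is induced on injury, had 0.116, 0.0762 and 1.91 FPKM in knockouts 2, 4 and 5, against 3.48, 4.46 and 3.31 FPKM in wild types 3, 4 and 5. That is 3 and 2 fragments in knockouts 2 and 4 and 45 in knockout 5, and the log2 fold change was -1.64 (SE 0.37, limma, adjusted p = 0.116). Both genes lay lower in all 3 knockouts with no overlap.

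**Figure D2:**
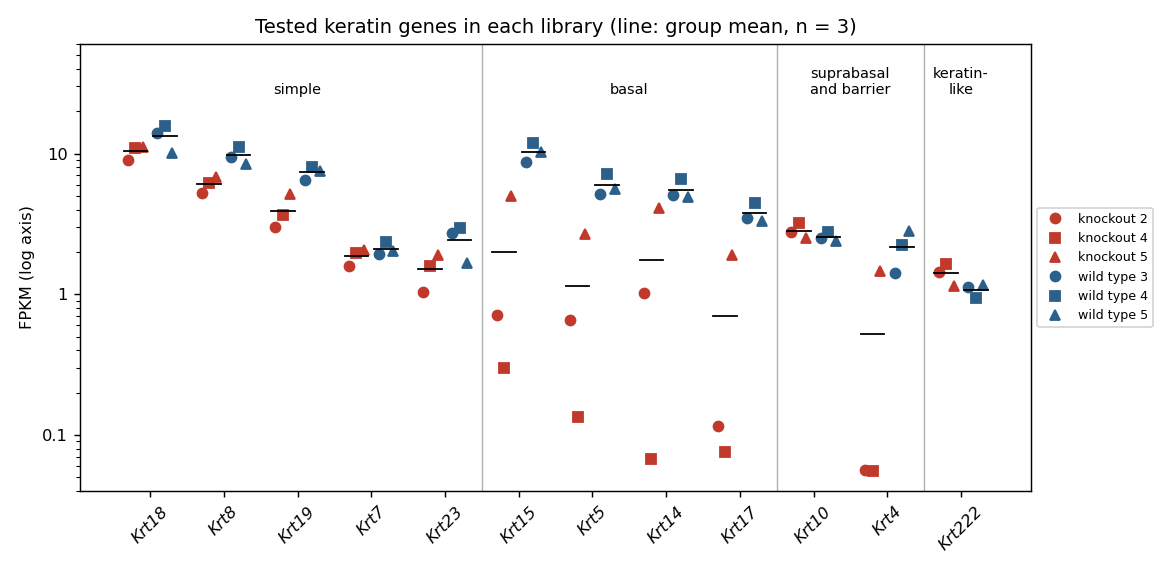
Each point is the FPKM (log axis) of 1 tested keratin gene in 1 library, with knockouts left of wild types, the shape giving the replicate and lines the group means (n = 3 each). The basal keratins and Krt4 spread over a wide range in the knockouts, down to 0.0554 FPKM for Krt4 in knockout 4, while Krt7, Krt10 and Krt222 lie close together.

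Among the keratins of upper layers, Krt4 was low in the same libraries as the basal genes and Krt10 was not. Krt4, the type II keratin of the upper layers of mucosa such as the oesophagus, had 0.0563, 0.0554 and 1.45 FPKM in knockouts 2, 4 and 5, against 1.42, 2.24 and 2.82 FPKM in wild types 3, 4 and 5. Knockouts 2 and 4 held 2 fragments each, whereas knockout 5 (47 fragments) was just above wild type 3, so that the groups overlapped (log2 fold change -1.15, SE 0.34, limma, adjusted p = 0.168). Krt13, its usual type I partner, was nearly absent, with 1 to 4 fragments in the knockouts and 2 to 7 in the wild types. Krt10, the type I keratin of the upper epidermis, had 2.75, 3.19 and 2.53 FPKM in knockouts 2, 4 and 5, against 2.49, 2.78 and 2.397 FPKM in wild types 3, 4 and 5. Its groups overlapped (log2 fold change 0.10, SE 0.089, limma, adjusted p = 0.588), and its partner Krt1 was at 0.0448 to 0.353 FPKM in the knockouts, against 0.184 to 0.269 FPKM in the wild types.

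The other barrier keratins were all below the filter. Krt6a, a type II keratin of wounded and thick epidermis, held 0, 1 and 2 fragments in knockouts 2, 4 and 5, against 14, 7 and 7 in the wild types (3, 4 and 5). Of its 50-base stretches, 57.2% occur in transcripts of other genes, chiefly Krt6b, so that its assignment is uncertain. Krt80, a type II keratin just under the threshold of the test, had 0.638, 0.712 and 0.639 FPKM in knockouts 2, 4 and 5, against 0.796, 0.883 and 0.705 FPKM in wild types 3, 4 and 5. Its groups overlapped. Of the epidermal genes, Krt9 held 8 fragments, Krt77 held 4 and Krt2 held 2 in knockout 2. Krt9, Krt77 and Krt2 held 0 fragments in every other library, where a count of 0 allows up to 3 (counting error only). These low genes were named after their values were seen, and none was tested.

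The simple keratins were lower by smaller amounts, in sums of 20.3, 24.3 and 27.1 FPKM in knockouts 2, 4 and 5, against 34.6, 40.3 and 29.8 FPKM in wild types 3, 4 and 5. All 3 knockout sums lay below all 3 wild type sums. Within the male libraries the simple sum was 20.3 FPKM in knockout 2, against 34.6 and 40.3 FPKM in wild types 3 and 4. Within the female libraries it was 24.3 and 27.1 FPKM in knockouts 4 and 5, against 29.8 FPKM in wild type 5.

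Krt8, the type II keratin of simple epithelia (ENSMUSG00000049382, chromosome 15, 101996698 to 102004482), had 5.24, 6.13 and 6.80 FPKM in knockouts 2, 4 and 5, against 9.497, 11.2 and 8.47 FPKM in wild types 3, 4 and 5. The knockout values were close together and all below the wild type values. The log2 fold change was -0.60 (SE 0.11, limma, adjusted p = 0.0924), the smallest adjusted p of the 12 genes. Of the 50-base stretches of Krt8, 26.9% also occur in its processed pseudogene Krt8-ps, which was itself listed at 0 to 0.125 FPKM in the knockouts, against 0 to 0.246 FPKM in the wild types. Krt18, the type I partner of Krt8, had 9.02, 10.98 and 11.05 FPKM in knockouts 2, 4 and 5, against 13.9, 15.7 and 10.01 FPKM in wild types 3, 4 and 5. Its groups overlapped, since wild type 5 was below knockouts 4 and 5 (log2 fold change -0.31, SE 0.15, limma, adjusted p = 0.347).

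Krt19, the smallest keratin, had 3.01, 3.63 and 5.15 FPKM in knockouts 2, 4 and 5, against 6.498, 7.996 and 7.55 FPKM in wild types 3, 4 and 5. It was lower in 3 of 3 knockouts with no overlap (log2 fold change -0.78, SE 0.16, limma, adjusted p = 0.0964), and knockout 2 stood at 40.9% of the wild type mean. Krt23, another type I keratin, had 1.04, 1.59 and 1.90 FPKM in knockouts 2, 4 and 5, against 2.71, 2.94 and 1.68 FPKM in wild types 3, 4 and 5, with overlapping groups (log2 fold change -0.45, SE 0.18, limma, adjusted p = 0.268). Krt7, a type II keratin of ducts and glands, had 1.60, 1.96 and 2.06 FPKM in knockouts 2, 4 and 5, against 1.92, 2.35 and 2.02 FPKM in wild types 3, 4 and 5. The Krt7 groups overlapped as well (log2 fold change -0.11, SE 0.098, limma, adjusted p = 0.591). Krt20, known from gut epithelium and Merkel cells, held 14, 1 and 4 fragments in knockouts 2, 4 and 5, against 1 in each wild type, too few for the test.

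The keratin-like gene Krt222 had 1.44, 1.63 and 1.14 FPKM in knockouts 2, 4 and 5, against 1.12, 0.936 and 1.16 FPKM in wild types 3, 4 and 5. Its log2 fold change was 0.21 (SE 0.11, limma, adjusted p = 0.366), and the groups overlapped.

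Hair and inner root sheath keratins were near the limit of detection. The 11 hair keratins summed to 1.00, 1.33 and 1.34 FPKM in knockouts 2, 4 and 5, against 1.07, 1.18 and 0.743 FPKM in wild types 3, 4 and 5. Most of that was Krt87, at 0.843, 0.752 and 0.926 FPKM in the knockouts, against 0.612, 0.766 and 0.467 FPKM in the wild types, with overlap. Krt87 shares 36.9% of its 50-base stretches with transcripts of other genes, and its reads may in part belong to them. Of the 11 hair keratins, 9 held 0 fragments in at least 1 library. The 6 inner root sheath keratins summed to 0.346, 0.544 and 0.669 FPKM in knockouts 2, 4 and 5, against 0.978, 0.768 and 0.895 FPKM in wild types 3, 4 and 5. The largest of them was Krt75 of the follicle's companion layer, with 13, 17 and 20 fragments in the knockouts, against 29, 17 and 28 in the wild types.

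Keratin genes lie in a pair of clusters. All 21 keratin genes of chromosome 11 (99232761 to 100269871) are type I, and chromosome 15 (101347444 to 102032027) holds 21 type II genes and the type I gene Krt18. Genes that passed the filter and genes that did not were interspersed along both clusters. On chromosome 11, Krt15 and Krt19 are neighbours among the members, and Krt14 and Krt17 are separated by Krt16, which held 0 or 1 fragment in every library. On chromosome 15, Krt5 lies between Krt6a and Krt71, which held at most 14 fragments in any library, and Krt8 and Krt18 close the cluster.

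**Figure D3:**
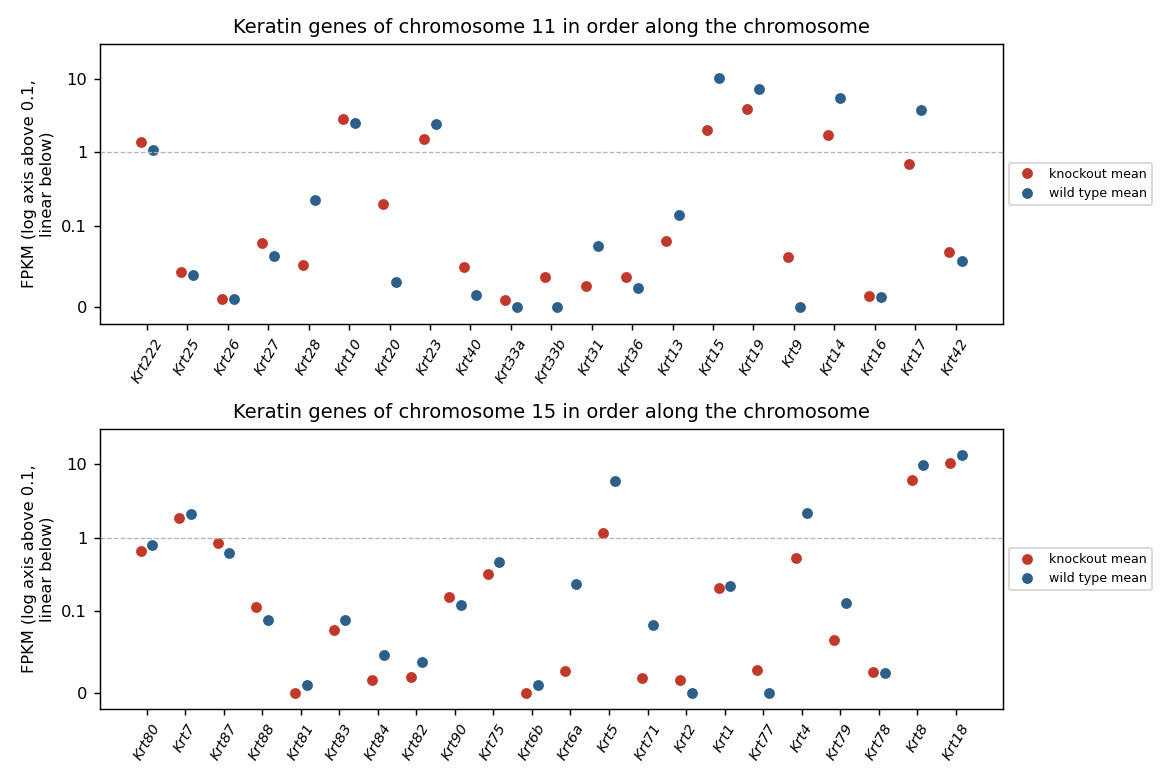
Group mean FPKM (n = 3 each, log axis above 0.1 and linear below) of every keratin gene in its order along chromosome 11 (top) and chromosome 15 (bottom), knockout left of wild type; the dashed line marks 1 FPKM. The genes whose wild type mean is above the line stand singly or in pairs, with the neighbours of Krt7 (Krt80 and Krt87) just under it.

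The type II sum over the type I sum was the same in both groups within their spread, at 0.503, 0.498 and 0.461 in knockouts 2, 4 and 5, against 0.476, 0.476 and 0.517 in the wild types (3, 4 and 5) (exact two-sided permutation p = 1). For ratios within or between pairs, 3 libraries against 3 cannot give an exact p under 0.05, so none could pass. Krt8 over Krt18 was 0.581, 0.558 and 0.615 in knockouts 2, 4 and 5, against 0.683, 0.711 and 0.846 in the wild types (3, 4 and 5), without overlap. Its exact two-sided permutation p was 0.1, the smallest that 3 against 3 can give, and 0.4 after Benjamini-Hochberg adjustment over the 4 ratios computed. Krt5 over Krt14 was 0.640, 2.00 and 0.647 in knockouts 2, 4 and 5, against 1.01, 1.08 and 1.13 in the wild types (3, 4 and 5). The value of knockout 4 rests on 5 and 2 fragments (exact two-sided permutation p = 1). Krt19 over Krt8 was 0.574, 0.593 and 0.758 in the knockouts, against 0.684, 0.714 and 0.892 in the wild types (exact two-sided permutation p = 0.3, adjusted 0.6).

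In the test across all genes no keratin passed. Of the 12 tested, 0 had an adjusted p under 0.05 (limma, Benjamini-Hochberg over 14072 genes), where 0.334% of all tested genes passed (47 genes, 18 higher and 29 lower, or 11 higher and 33 lower with median-ratio scaling). At an unadjusted p under 0.05 there were 8 of the 12, all lower, where 6.99% of all tested genes were lower at that level. The 6 genes Krt5, Krt8, Krt14, Krt15, Krt17 and Krt19 lay wholly lower in the knockouts, where 9.54% of all tested genes did so. The 5 genes Krt4, Krt5, Krt14, Krt15 and Krt17 had a log2 fold change of -1 or less, as did 0.497% of all tested genes. The median log2 fold change was -0.69 over the 12 keratins and 0.02 over all tested genes. The filter lets in genes that are high in the wild types alone, so these counts and the median describe the genes and do not support a difference.

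Whether keratins were called depended on the test and on knockout 5. With voom (limma) on the recovered fragments 6 keratins passed, all lower, where 2.72% of tested genes passed and 1.17% passed as lower. They were Krt15 (adjusted p = 0.0182), Krt5 and Krt19 (both 0.0252), Krt17 (0.0257), Krt8 (0.0290) and Krt4 (0.0499), and Krt14 did not pass (0.0707). Without knockout 5, again 6 keratins passed, all lower, where 0.746% of tested genes did and 0.597% did as lower (limma on log2(FPKM + 1)). These were Krt15 (adjusted p = 0.00176), Krt17 (0.00298), Krt5 (0.00918), Krt19 (0.0208), Krt14 (0.0329) and Krt4 (0.0341), of which 5 were also among the voom calls. Leaving out any other single library gave 0 keratins, as did leaving out knockouts 2 and 4 together, where 0.0213% of tested genes passed.

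**Figure D4:**
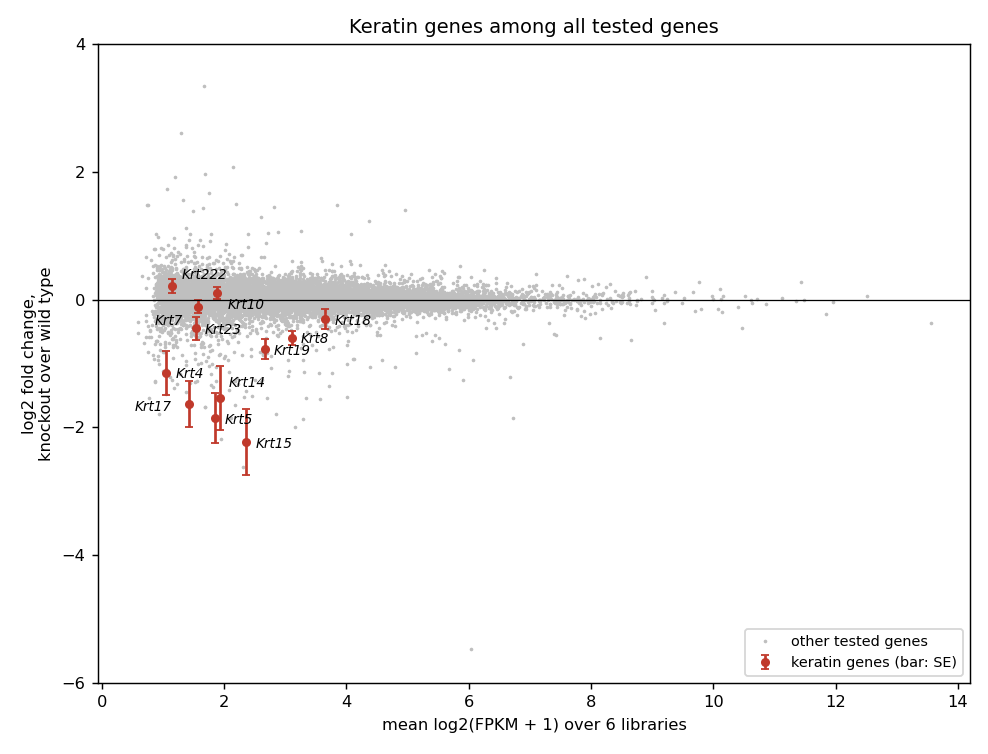
Log2 fold change, knockout over wild type, against the mean log2(FPKM + 1) over 6 libraries for all 14072 tested genes (grey) and the 12 tested keratins (red, bars are SE). The 4 basal keratins lie at -1.54 to -2.24, Krt10 and Krt222 slightly above 0.

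Genes that anchor keratin filaments were listed for comparison. Of 19 desmosome and hemidesmosome genes measured, 16 were tested, 0 passed (limma), and at an unadjusted p under 0.05 there were 6 lower and 1 higher, with a median log2 fold change of -0.17. Of all tested genes 6.99% were lower and 10.6% higher at that level, the shares against which the counts of the other lists stand too. The 2 most abundant were Plec, the linker of keratin to hemidesmosomes, at 19.8, 20.1 and 19.5 FPKM in knockouts 2, 4 and 5, against 23.0, 24.2 and 23.1 FPKM in wild types 3, 4 and 5, and Pkp4, a plakophilin relative, at 20.1 ± 0.987 FPKM against 21.2 ± 1.02 FPKM (SD, n = 3 each). Named after their values were seen, Dsc3 and Col17a1 were lowest in knockouts 2 and 4, as the basal keratins were. Dsc3, the desmosomal cadherin of basal cells, had 0.0444, 0.241 and 2.27 FPKM in knockouts 2, 4 and 5, against 1.88, 2.87 and 3.32 FPKM in wild types 3, 4 and 5 (adjusted p = 0.213, limma). Col17a1, the collagen of hemidesmosomes, had 0.180, 0.206 and 0.658 FPKM in the knockouts, against 1.28, 2.01 and 1.09 FPKM in the wild types (adjusted p = 0.116, limma).

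Genes of the cornified envelope, the hardened shell of dead skin cells, were low throughout. Only 3 of the 17 in the table were tested and 0 passed (limma), with 1, Calml3, lower at an unadjusted p under 0.05 and a median log2 fold change of -0.03. Over all 17, tested or not, 4 lay wholly lower in the knockouts and 0 wholly higher. Of all tested genes 9.54% lay wholly lower and 15.2% wholly higher, shares that do not cover genes below the filter. Sbsn had 2.397 ± 0.265 FPKM in knockouts and 2.19 ± 0.401 FPKM in wild types, and Calml3 had 0.819 ± 0.287 FPKM in knockouts and 1.78 ± 0.421 FPKM in wild types (SD, n = 3 each). Of 15 regulators of stratified epithelium 5 were tested, 0 passed and 1 was lower at an unadjusted p under 0.05 (median log2 fold change -0.15). The leading members were Klf4, a barrier regulator of skin, at 52.2 ± 4.81 FPKM in knockouts and 49.2 ± 2.85 FPKM in wild types, and Klf5 at 3.55 ± 0.0933 FPKM in knockouts and 4.11 ± 1.03 FPKM in wild types (SD, n = 3 each). Trp63, the gene of p63, was below the filter, at 0.329, 0.183 and 0.244 FPKM in knockouts 2, 4 and 5, against 0.325, 0.367 and 0.276 FPKM in wild types 3, 4 and 5, with overlap. Over all 15 regulators, tested or not, 6 lay wholly lower in the knockouts (Tfap2c, Grhl2, Grhl3, Ovol1, Esrp2 and Sfn), where 9.54% of all tested genes did so. That share covers tested genes only and is no measure for the regulators below the filter. Tfap2c, an AP-2 factor, had 0, 0.0321 and 0.0179 FPKM in knockouts 2, 4 and 5, against 0.181, 0.458 and 0.170 FPKM in wild types 3, 4 and 5. Sfn, the tested one of the 6, had an adjusted p of 0.165 (limma). Of 12 hair follicle regulators 6 were tested and 0 passed, also at an unadjusted p under 0.05 (median log2 fold change 0.04). Its most abundant members were Dlx3 at 32.4 ± 3.23 FPKM in knockouts and 31.2 ± 0.7998 FPKM in wild types, and Gata3 at 7.77 ± 0.742 FPKM in knockouts and 7.28 ± 0.189 FPKM in wild types (SD, n = 3 each).

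**Figure D5:**
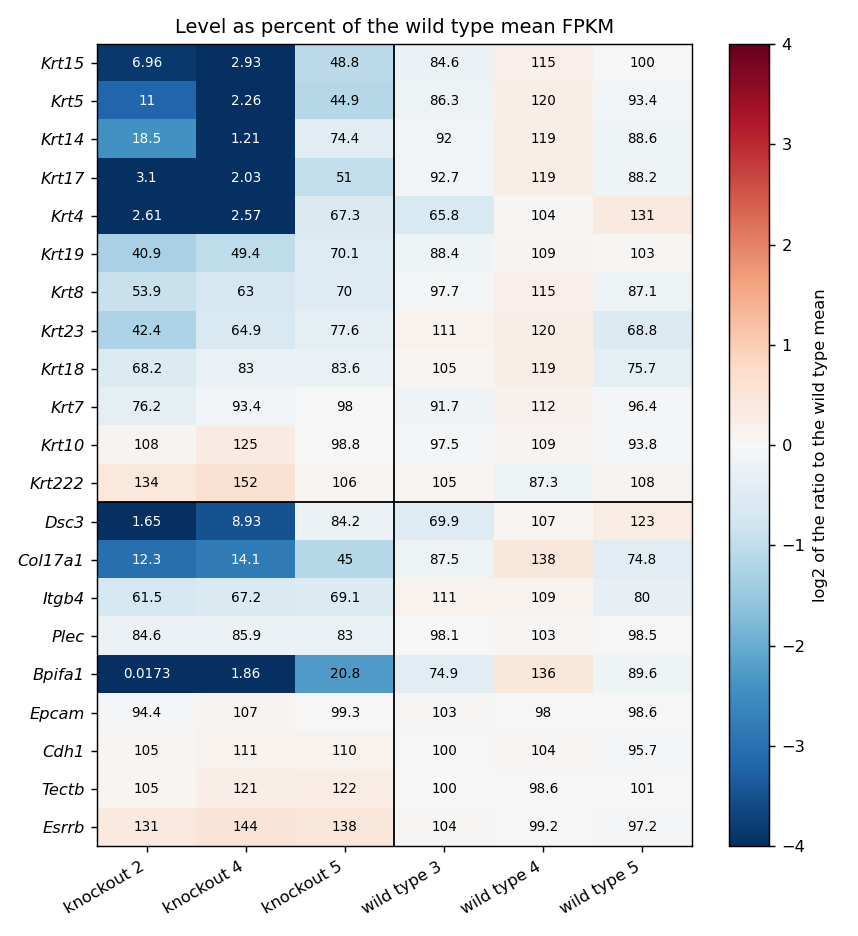
Level in each library as a percentage of the wild type mean FPKM, for the 12 tested keratins (above the line) and genes of other lists (below), knockouts left of wild types; colour gives the log2 of the ratio, limited to -4 and 4. Knockouts 2 and 4 stand at 18.5% or less for Krt15, Krt5, Krt14, Krt17, Krt4, Dsc3, Col17a1 and Bpifa1, while Epcam and Cdh1 are between 94.4% and 111% in all libraries.

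General epithelial genes were not low in knockouts 2 and 4 as the basal keratins were, taking the 2 most abundant. Of 12 epithelial identity genes 11 were tested and 0 passed (limma), with 1 higher and 3 lower at an unadjusted p under 0.05 (10.6% and 6.99% of all tested genes) and a median log2 fold change of -0.15. Cdh1, the epithelial cadherin, had 33.2, 35.1 and 34.9 FPKM in knockouts 2, 4 and 5, against 31.8, 32.9 and 30.4 FPKM in wild types 3, 4 and 5. Epcam, an epithelial adhesion molecule, had 28.2, 32.1 and 29.7 FPKM in knockouts 2, 4 and 5, against 30.9, 29.3 and 29.4 FPKM in wild types 3, 4 and 5. Epcam overlapped between the groups, and Cdh1 was higher in 3 of 3 knockouts without passing the test (adjusted p = 0.270, limma).

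The summed level of markers of a neighbouring epithelium was low in the same libraries as the basal keratins, but its members varied. The 12 genes of the secretory epithelium of the middle ear summed to 15.5, 26.9 and 105 FPKM in knockouts 2, 4 and 5, against 400, 753 and 413 FPKM in wild types 3, 4 and 5. Of these, 3 were tested and 0 passed (limma), 2 were lower at an unadjusted p under 0.05 (6.99% of all tested genes), the median log2 fold change was -0.60, and 5 of the 12 were at 0 in at least 1 library. Bpifa1, a secreted airway protein gene and most of the sum in the wild types, was at 0.0777, 8.34 and 93.3 FPKM in knockouts 2, 4 and 5, against 336, 608 and 402 FPKM in wild types 3, 4 and 5. As with the basal keratins, knockouts 2 and 4 were lowest and knockout 5 lay between them and the wild types. Bpifb1 was as low in wild type 5 as in the knockouts, having 0.232, 0.229 and 0.237 FPKM in the knockouts, against 27.2, 84.9 and 0.190 FPKM in wild types 3, 4 and 5. Muc5b and Reg3g, a mucin and an antimicrobial lectin gene, were low in all 3 knockouts, at most 1.49% and 1.83% of the wild type mean, against 7.74% and 5.05% in wild type 5. Ltf, the lactoferrin gene, stood at 77.0%, 89.99% and 55.9% of the wild type mean in knockouts 2, 4 and 5, against 30.2% in wild type 5, its lowest library. Lypd2 was lowest in knockout 5, at 43.8%. Over all 12 genes, tested or not, 6 lay wholly lower in the knockouts, where 9.54% of all tested genes did so. That share covers tested genes only, and 1 of the 6 was tested, so it is no measure for the rest. Of the members named here, all but Bpifa1 and Bpifb1 were picked after their values were seen. The part of this epithelium in the keratin values was not tested.

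Ciliated cell genes summed to 22.2, 26.7 and 28.5 FPKM in knockouts 2, 4 and 5, against 30.9, 32.3 and 30.996 FPKM in wild types 3, 4 and 5. Of the 10, 4 were tested and 0 passed (limma), with 2 lower at an unadjusted p under 0.05 (6.99% of all tested genes) and a median log2 fold change of -0.22. Tppp3 had 19.0 ± 2.53 FPKM in knockouts and 22.5 ± 1.31 FPKM in wild types, and Foxj1, the regulator of motile cilia, 2.71 ± 0.426 FPKM in knockouts and 4.59 ± 1.38 FPKM in wild types (SD, n = 3 each). The part of ciliated cells in the keratin values was not tested.

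Markers of the sensory epithelium and the stria vascularis had higher sums in the knockouts. The 8 hair cell genes summed to 26.2, 29.7 and 26.5 FPKM in knockouts 2, 4 and 5, against 24.2, 23.3 and 22.1 FPKM in wild types 3, 4 and 5, with 6 tested, 0 passing (limma), 2 higher at an unadjusted p under 0.05 (10.6% of all tested genes) and a median log2 fold change of 0.17. Otof, which serves transmitter release, had 8.24 ± 0.556 FPKM in knockouts and 7.28 ± 0.349 FPKM in wild types, and Myo7a 5.95 ± 0.213 FPKM in knockouts and 5.86 ± 0.426 FPKM in wild types (SD, n = 3 each). The 10 supporting cell genes summed to 258, 292 and 280 FPKM in knockouts 2, 4 and 5, against 243, 244 and 255 FPKM in wild types 3, 4 and 5. Of these 9 were tested, 0 passed (limma), 5 were higher and 1 lower at an unadjusted p under 0.05 (10.6% and 6.99% of all tested genes), and the median log2 fold change was 0.21. Besides Tectb the most abundant was the connexin gene Gjb2, at 72.5 ± 4.61 FPKM in knockouts and 61.9 ± 2.65 FPKM in wild types (SD, n = 3 each). The 6 strial marginal cell genes summed to 94.1, 99.7 and 95.6 FPKM in knockouts 2, 4 and 5, against 83.9, 87.0 and 84.9 FPKM in wild types 3, 4 and 5. All 6 were tested, 5 were higher at an unadjusted p under 0.05 (10.6% of all tested genes), and the nuclear receptor gene Esrrb passed, at 8.64 ± 0.385 FPKM in knockouts and 6.28 ± 0.208 FPKM in wild types (SD, n = 3 each, adjusted p = 0.0456, limma; median log2 fold change of the list 0.29). Esrrb lost its call in 13 of 17 alternatives. No library stood low in these sums as knockouts 2 and 4 did in the basal keratins.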

How the data were processed

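RNA-seq of mouse cochlea at postnatal day 7 was deposited by the authors as 1 table of FPKM per gene, on GRCm38 per the submitters' processing notes. The sources used here do not name the aligner, the counter or the use of strand. Multiplying FPKM by GENCODE M21 exon length gave whole fragments in every library for 98.3% of genes (within 0.01 fragment plus a relative 1e-06). Knockout was compared with wild type by limma 3.58.1 (R 4.3.3, eBayes with a trend) on log2(FPKM + 1), for genes with at least 1 FPKM in at least 3 libraries. P-values were Benjamini-Hochberg adjusted over 14072 genes, with a threshold of 0.05. Fold changes on this scale understate those of low genes. Ratios were tested by exact permutation over samples. Sums and figures used Python 3.11.15.

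The members and all gene lists were chosen with earlier results of these data known. Every keratin that passed the filter was named, the others by class with those of at least 1 FPKM. Of each list up to 4 called genes were named, or the 2 with the highest mean; Dsc3, Col17a1, Trp63, Sfn, the regulators below the filter, further middle ear genes and the low keratins were named after their values were seen. Other pseudocounts, filters, scalings, a sex term, a replicate block, voom on the recovered fragments and fits without single libraries were tried. Intervals and floors cover counting error only. Promoter sequences are from RefSeq, matched by symbol for 28 of the 43 genes.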

Additional observations from a re-analysis of the deposited data

How the results depend on the processing

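The count of all genes called, 47 with limma, was 20 without the filter, 103 with a filter of 5 FPKM, 19 without the trend, 24 with sex as a covariate, 22 with the replicate block and 375 with voom. It was 12 to 105 when single libraries were left out and 3 without knockouts 2 and 4, a setting chosen after seeing the data. Keratins called, 0 with limma, were 6 with voom, 0 to 6 without single libraries and 0 with the replicate block. Genes of the other lists called, 1 with limma, were 0 without the filter, 2 at 5 FPKM, 0 with median-ratio scaling, 0 with quantile normalization, 0 without the trend, 0 with sex, 0 with the replicate block, 11 with voom, 0 to 2 without single libraries and 0 without knockouts 2 and 4. Without knockouts 2 and 4, the difference in summed FPKM (knockout minus wild type) was -11.8 for basal keratins (-19.9 with all libraries), -0.211 for inner root sheath keratins (-0.361), 0.0686 for Krt222 (0.332) and -20.6 for all keratins (-32.3), and the log2 fold change of Krt10 reversed to -0.011 (0.10). The cause of these changes was not tested. The groups share only replicate numbers 4 and 5, whose libraries correlated at 0.14 and 0.15 in their deviations from the group means. Pairs with unlike numbers correlated at -0.125 to 0.110. Whether an equal number marks anything else that the samples share was not tested. Of 214 alternatives for single genes, 188 kept direction and call, 13 lost the call (all Esrrb), 12 gained one and 1 reversed. Keratins of a few fragments, such as most hair keratins, are limited by depth.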

Other observations

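Intermediate filament genes other than keratins were measured in the same libraries. Of 16, 14 were tested and 0 passed (limma), with 3 higher and 3 lower at an unadjusted p under 0.05 (10.6% and 6.99% of all tested genes) and a median log2 fold change of -0.01. Vim, the filament gene of mesenchymal cells, had 183, 174 and 182 FPKM in knockouts 2, 4 and 5, against 204, 201 and 203 FPKM in wild types 3, 4 and 5. Lmna, which encodes nuclear lamins, had 48.0, 48.7 and 48.3 FPKM in the knockouts, against 56.9, 57.0 and 53.7 FPKM in the wild types. Named after their values were seen, Synm, the gene of synemin, had 4.23, 4.15 and 4.54 FPKM in the knockouts, against 2.96, 3.27 and 2.93 FPKM in the wild types, and Nefh, a neurofilament gene of neurons, had 30.01, 31.6 and 26.0 FPKM in the knockouts, against 17.4, 24.7 and 22.1 FPKM in the wild types.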
